A study of Mus musculus with 5 samples.

Results

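The genes described here are 49 genes of DNA replication and cell division, measured in RNA from 2 populations of pancreas cells from adult C57BL/6 mice aged 2 to 4 months. They were taken by symbol from a list of cell cycle genes, all 49 were found, and 16992 symbols are common to the tables of all libraries. They were split into 20 S phase members, most of which act in G1/S control and DNA synthesis, and 29 G2/M members, which act in entry into and passage through mitosis. The populations were CD133(positive)CD71(negative) cells (2 libraries) and CD133(high)CD71(low) cells (3 libraries), both freshly sorted. A second label of the latter reads CD71 plus rather than low. CD133 is the product of Prom1 and CD71, the transferrin receptor, that of Tfrc. The series title links the CD133(high)CD71(low) fraction to colony-forming progenitor cells. No label says whether libraries of a group came from separate mice or sorts, so the p-values reflect library-to-library spread alone, which may be technical.

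A cell that divides copies its DNA in S phase and separates the copies in mitosis, and most adult pancreatic duct and acinar cells rest outside the cycle. In G1 the MCM helicase is loaded on replication origins by Cdc6 and Cdt1, cyclin E and the E2F factors start S phase, and enzymes of nucleotide synthesis supply the DNA precursors. Cyclins A and B with Cdk1 then drive mitosis, Aurora and Polo-like kinases build the spindle, and the anaphase-promoting complex (APC/C) with Cdc20 ends it by degrading the cyclins. Many replication genes stay transcribed at low levels in resting cells or act in DNA repair, whereas most G2/M genes are transcribed mainly in cells in G2 and mitosis.

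About as many mitotic genes rose in CD133(high)CD71(low) cells as did not pass the test, and no replication gene rose. Of the 29 G2/M members 15 rose and 0 fell, where 5.67% of the 16887 genes tested rose and 10.2% fell (limma, adjusted p under 0.05). Of the 20 S phase members 0 rose and 2 fell, E2f2 and Ccne1, a share of falls near that of all genes. The difference between the classes was not tested. The CD133(high)CD71(low) mean was 2.31 times the CD133(positive)CD71(negative) mean for the median G2/M member, 1.25 times for the median S phase member and 1.24 times for the median of all genes. A ratio of means of at least 2 was reached by 21 of the 29 G2/M members and by 2 of the 20 S phase members, Cdc6 and Tyms, neither of which passed the test. The largest relative rises among called members were those of Anln, Prc1 and Ccnb2, each over 4 times as high. The number of calls rests on each library, most of all on the 2 of CD133(positive)CD71(negative), where leaving out either leaves 1 in the group. The size of the change moved little: the G2/M median log2 fold change was 0.57 with all libraries. It was 0.54 without the first of the 2 and 0.58 without the second, where the median of all genes was 0.14 and 0.22. Without the first or the second of these, 0 or 1 (Tpx2) of the G2/M members rose, against 0.101% or 0.237% of genes. Without library 1 or 2 of the other group 7 or 4 rose, against 0.747% or 0.391%. Leaving out library 3 gave 24 rises, against 21.9% of genes. E2f2 and Ccne1 both lost their call without the first, without the second and without CD133(high)CD71(low) library 1, and Ccne1 alone without its library 2.

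Values are in RPKM, a read density per length of transcript and per depth of library, so that levels can be compared between genes. This unit was inferred from the values, which cannot tell it from FPKM. Below they are listed for CD133(positive)CD71(negative) libraries 1 and 2, then for CD133(high)CD71(low) libraries 1, 2 and 3. A fold change is positive where CD133(high)CD71(low) was higher and was taken on log2(RPKM + 1), which understates the relative change of low genes. The inferred depth ran from 19.8 to 41.9 M reads (M, 1e6). Library 3 of CD133(high)CD71(low) has other gene models than the other 4 tables, and across genes it correlated less with libraries 1 and 2 (Pearson r of 0.911 and 0.92) than they did with each other (0.994). Its table also held a smaller share of acinar transcripts, with a sum over 15 acinar markers of 105992 RPKM against 228060 to 273890 in the other libraries. Both sort genes were higher in each CD133(high)CD71(low) library. Prom1 measured 45.8 and 48.8 RPKM against 72.8, 74.7 and 133. Tfrc measured 4.00 and 4.36 RPKM against 5.34, 6.84 and 12.2, without overlap like Prom1. The values of all members are in the plot of member levels by library.

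**Figure D1:**
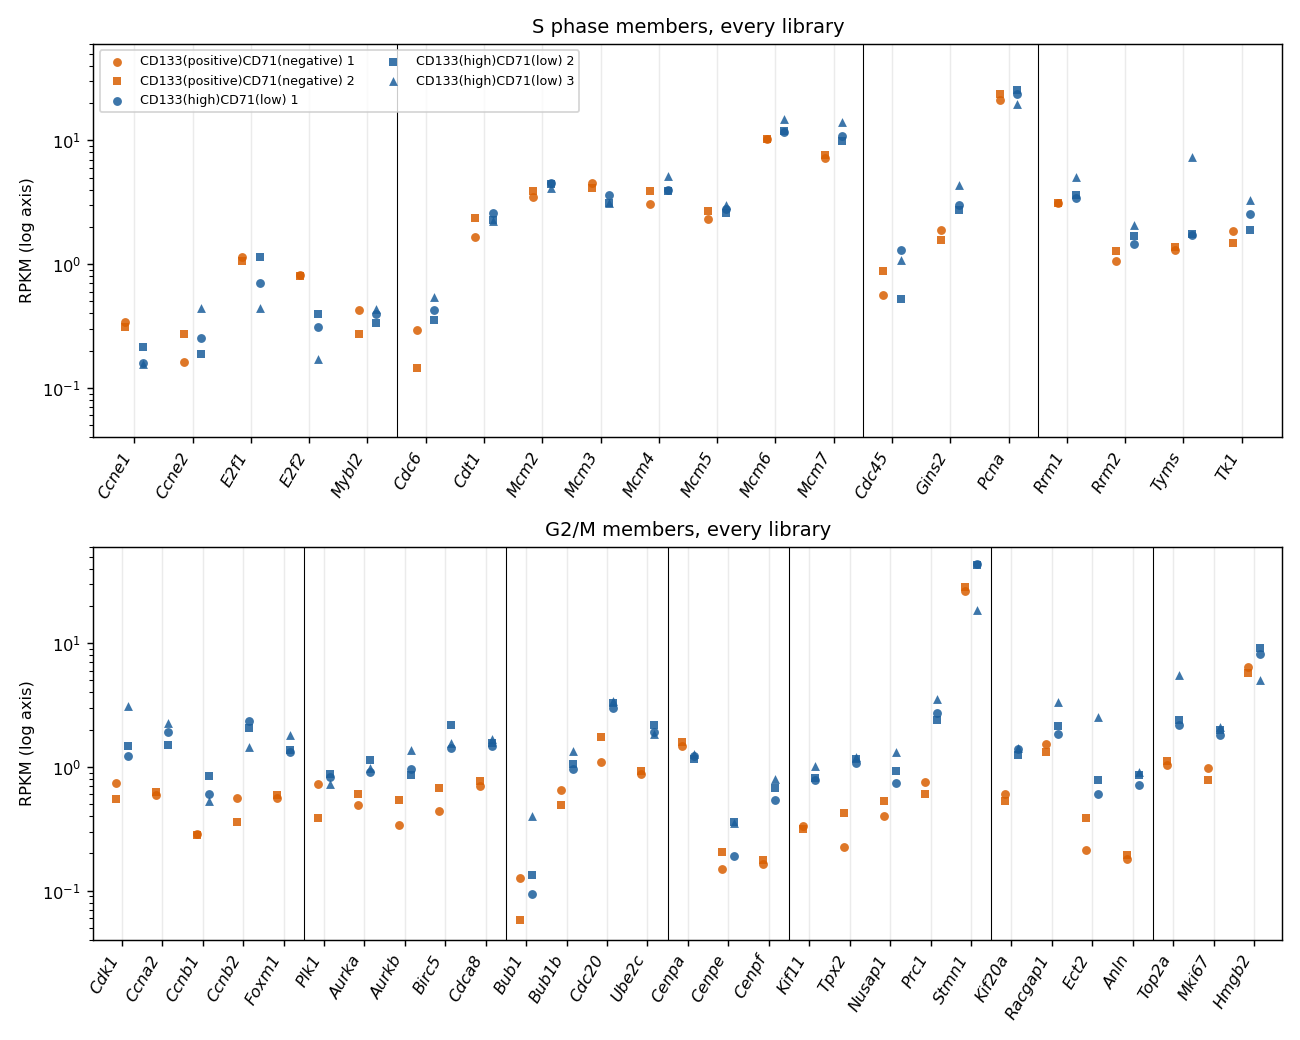
RPKM (log axis) of the 20 S phase members (top) and 29 G2/M members (bottom) in every library, with vertical lines between groups of genes of like role. Points are single libraries, orange for CD133(positive)CD71(negative) and blue for CD133(high)CD71(low). All blue points lie above both orange points for 23 of the 29 G2/M members and 10 of the 20 S phase members. The same order held for 44.5% of all genes, which the S phase share is near.

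Promoters are printed for the 3 G2/M members with the largest ratio among those that rose, because CHR and CCAAT motifs are common in that class. They are also printed for 3 of the 7 S phase members with an E2F motif, as examples chosen after their values were seen: Mcm6, which has 3 matches, and Mcm3 and E2f2, which lay lower in every CD133(high)CD71(low) library. In resting cells the DREAM complex binds the cell cycle genes homology region (CHR) of G2/M promoters and represses them, and in dividing cells B-Myb and FoxM1 act through the same element, often beside CCAAT boxes bound by NF-Y. E2F factors bind the promoters of replication genes. Sequences are from RefSeq (GRCm38.p6, the assembly of mm10), 5′ to 3′ on the gene's strand, and run from 150 bases before to 50 bases after the annotated start. In the first 3, capitals mark CHR motifs (TTTGAA or TTCGAA) and CCAAT, on either strand.
Prc1, chr7:80294301-80294500, strand +: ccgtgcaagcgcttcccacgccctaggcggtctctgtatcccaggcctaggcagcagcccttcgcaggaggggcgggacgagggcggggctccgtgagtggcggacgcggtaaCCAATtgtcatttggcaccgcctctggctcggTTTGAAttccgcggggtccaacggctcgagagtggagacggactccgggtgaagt
Ccnb2, chr9:70421505-70421704, strand -: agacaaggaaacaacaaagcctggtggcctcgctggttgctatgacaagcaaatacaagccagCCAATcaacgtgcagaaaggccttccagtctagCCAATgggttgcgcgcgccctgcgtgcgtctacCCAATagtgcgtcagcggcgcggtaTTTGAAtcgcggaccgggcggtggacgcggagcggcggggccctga
Anln, chr9:22389157-22389356, strand -: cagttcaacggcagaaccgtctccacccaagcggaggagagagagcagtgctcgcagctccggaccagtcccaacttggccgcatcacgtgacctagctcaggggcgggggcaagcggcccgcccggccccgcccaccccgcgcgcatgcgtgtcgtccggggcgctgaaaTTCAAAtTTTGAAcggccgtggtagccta
In the next 3, capitals mark the E2F motif (TTTCCCGC, TTTGGCGC, TTTCGCGC or TTTGCCGC, on either strand, neighbouring matches overlapping in Mcm6).
Mcm6, chr1:128359656-128359855, strand -: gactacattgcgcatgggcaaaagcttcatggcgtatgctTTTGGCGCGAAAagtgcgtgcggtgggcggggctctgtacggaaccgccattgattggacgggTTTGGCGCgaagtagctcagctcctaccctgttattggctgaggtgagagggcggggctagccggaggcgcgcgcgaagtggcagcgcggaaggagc
Mcm3, chr1:20820263-20820462, strand -: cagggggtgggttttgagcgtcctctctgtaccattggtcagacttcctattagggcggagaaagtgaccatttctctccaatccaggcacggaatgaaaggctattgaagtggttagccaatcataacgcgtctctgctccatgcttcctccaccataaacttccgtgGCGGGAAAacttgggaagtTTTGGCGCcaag
E2f2, chr4:136172124-136172323, strand +: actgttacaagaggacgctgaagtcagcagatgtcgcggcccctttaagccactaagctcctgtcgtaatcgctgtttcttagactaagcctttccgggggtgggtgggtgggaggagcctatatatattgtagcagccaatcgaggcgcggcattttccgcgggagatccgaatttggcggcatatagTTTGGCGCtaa

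The motifs were unevenly shared between the classes. RefSeq promoter windows, 300 bases long with 250 before the start, matched 23 G2/M and 17 S phase members by symbol. A CHR motif lay in 19 of the 23 G2/M members and 4 of the 17 S phase members, against 21.7% of 27025 genes with windows. CCAAT lay in 20 and 10 of them, against 41.1%, and both motifs in 18 and 4, against 8.61%. The E2F motif lay in 1 G2/M member, Cdk1, and in 7 of the 17 S phase members, against 2.60% of genes. Motifs were counted separately, and E2F and CCAAT matches may overlap at their ends. Among G2/M members with a window, the CHR motif lay in 10 of 11 that rose and in 9 of 12 that did not pass, a difference that was not tested. A match describes letters in this window and not binding.

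Of the 5 members of mitotic entry, 3 rose. Ccna2 (chromosome 3, 36564865 to 36573038, mm10), the cyclin A of S phase and G2, measured 0.588 and 0.626 RPKM against 1.90, 1.50 and 2.27 (limma log2 fold change 0.84, SE 0.14, adjusted p = 0.0219), and its mean was 3.11 times as high in CD133(high)CD71(low). Ccnb2 (chromosome 9, 70407689 to 70421554), a B-type cyclin that partners Cdk1 in mitosis, measured 0.560 and 0.360 RPKM against 2.33, 2.08 and 1.44 (limma log2 fold change 1.01, SE 0.17, adjusted p = 0.0226). Both genes had no overlap between groups. Foxm1, the forkhead factor that activates G2/M genes, measured 0.566 and 0.589 RPKM against 1.32, 1.37 and 1.79 and rose as well (limma log2 fold change 0.66, SE 0.11, adjusted p = 0.0224). Ccnb1, the other main mitotic cyclin, lay at 0.288 and 0.283 RPKM against 0.607, 0.839 and 0.535, also with no overlap, and missed the threshold (limma adjusted p = 0.0583). Cdk1, the kinase these cyclins activate, lay at 0.740 and 0.546 RPKM against 1.23, 1.48 and 3.11 and did not pass either (limma adjusted p = 0.136), with library 3 more than 2 times as high as the other two of its group. Without library 3 both passed (limma adjusted p = 0.025 for Ccnb1 and 0.0245 for Cdk1). When those libraries were also scaled to equalize the typical gene (median-of-ratios scaling), Ccnb1 passed and Cdk1 did not (limma adjusted p = 0.0454 and 0.0632).

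Among mitotic kinases and the chromosomal passenger complex, which corrects the attachment of chromosomes to the spindle, 3 of 5 members rose. Cdca8, encoding borealin, measured 0.699 and 0.775 RPKM against 1.48, 1.57 and 1.68 (limma log2 fold change 0.57, SE 0.081, adjusted p = 0.0152). Birc5, encoding survivin, measured 0.444 and 0.674 RPKM against 1.42, 2.20 and 1.56 (log2 fold change 0.80, limma adjusted p = 0.0351), and both were low in the CD133(positive)CD71(negative) libraries without overlap. Aurka, the kinase of the spindle poles, measured 0.494 and 0.609 RPKM against 0.902, 1.14 and 0.984 and had the smallest fold change of the 15, with means of 0.551 ± 0.0810 (SD, n = 2) and 1.01 ± 0.120 (SD, n = 3) RPKM (log2 fold change 0.37, limma adjusted p = 0.0432). Aurkb, the kinase of the complex itself, did not pass at 0.341 and 0.541 RPKM against 0.958, 0.861 and 1.37 (limma adjusted p = 0.0692), although its groups did not overlap. Plk1, the Polo-like kinase, overlapped between groups, at 0.730 and 0.389 RPKM against 0.823, 0.882 and 0.723.

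Of 4 genes of the spindle checkpoint and the APC/C, the 2 that act with the APC/C rose. Cdc20, the activator of the APC/C, measured 1.10 and 1.75 RPKM against 2.99, 3.27 and 3.38 (limma log2 fold change 0.81, SE 0.16, adjusted p = 0.0361) and was the highest of the 15 in CD133(high)CD71(low), at a mean of 3.22 RPKM. Ube2c, its ubiquitin-conjugating enzyme, measured 0.884 and 0.920 RPKM against 1.91, 2.19 and 1.85 (log2 fold change 0.65, limma adjusted p = 0.018). The checkpoint kinase genes were not called. Bub1b had no overlap between groups at 0.652 and 0.495 RPKM against 0.954, 1.05 and 1.36 (limma adjusted p = 0.0659). Bub1 had the lowest CD133(positive)CD71(negative) mean of all members, at 0.127 and 0.0581 RPKM against 0.0937, 0.134 and 0.399. Its smallest value stands for about 4 reads at the inferred depth, whereas 48 of the 49 members had about 10 or more reads in every library. These read numbers were estimated from the longest annotated transcript of each gene and may be too high.

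At the kinetochore and centromere, Cenpf, a large protein of the outer kinetochore that accumulates in G2, measured 0.166 and 0.177 RPKM against 0.542, 0.681 and 0.800 (limma log2 fold change 0.51, SE 0.075, adjusted p = 0.0158). Its mean was 3.94 times as high in CD133(high)CD71(low), a change from very low levels. Cenpe, the kinetochore motor, overlapped between groups at 0.151 and 0.206 RPKM against 0.192, 0.357 and 0.351. Cenpa, the centromeric histone H3 variant, stood alone among G2/M members in lying below both others in every CD133(high)CD71(low) library, at 1.47 and 1.58 RPKM against 1.22, 1.16 and 1.28. It did not pass (limma adjusted p = 0.186), and it fell under median-of-ratios scaling (limma adjusted p = 0.0405), which equalizes the typical gene between libraries.

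Among spindle proteins, Prc1 (chromosome 7, 80294445 to 80316259), which bundles the microtubules of the central spindle, had the highest fold change of all members on the log2 scale. It measured 0.755 and 0.603 RPKM against 2.74, 2.40 and 3.56, with means of 0.679 ± 0.108 (SD, n = 2) and 2.90 ± 0.595 (SD, n = 3) RPKM. Its groups did not overlap (limma log2 fold change 1.21, SE 0.16, adjusted p = 0.0129). Tpx2 (chromosome 2, 152847964 to 152895321), which activates Aurora A on spindle microtubules, measured 0.225 and 0.422 RPKM against 1.08, 1.17 and 1.19 (limma log2 fold change 0.70, SE 0.085, adjusted p = 0.00958), and its 3 CD133(high)CD71(low) libraries differed by little. Kif11, the kinesin that pushes the spindle poles apart, measured 0.334 and 0.314 RPKM against 0.778, 0.807 and 1.02 (log2 fold change 0.49, limma adjusted p = 0.0168). Nusap1, a microtubule stabilizer, had no overlap at 0.402 and 0.526 RPKM against 0.743, 0.924 and 1.31 but was not called (limma adjusted p = 0.0993).

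Stmn1, encoding the microtubule destabilizer stathmin, was the most abundant of all members and its groups overlapped. It measured 26.4 and 28.4 RPKM against 43.8, 42.4 and 18.5 (limma adjusted p = 0.673): libraries 1 and 2 of CD133(high)CD71(low) were the highest of all 5 and library 3 the lowest. Without library 3 it passed (log2 fold change 0.64, limma adjusted p = 0.00629). Hmgb2, a chromatin protein, had the same order of groups at 6.47 and 5.75 RPKM against 8.12, 9.17 and 5.08 (limma adjusted p = 0.546, and 0.0358 without library 3). Both are also transcribed in cells that do not divide, and with median-of-ratios scaling of all libraries their fold changes were -0.04 and -0.03, neither past the threshold. The same scaling without library 3 gave 0.45 for Stmn1, which passed (limma adjusted p = 0.00674). It gave 0.27 for Hmgb2, which did not (limma adjusted p = 0.18).

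In cytokinesis all 4 members were higher in every CD133(high)CD71(low) library, as were 44.5% of all genes, and 2 were called. Anln (chromosome 9, 22331214 to 22389211), encoding the contractile ring protein anillin, had the smallest p of all members and measured 0.181 and 0.195 RPKM against 0.720, 0.854 and 0.906 (limma log2 fold change 0.62, SE 0.060, adjusted p = 0.00513). Its mean of 0.827 RPKM in CD133(high)CD71(low) was 4.40 times the other. Kif20a, a kinesin of the central spindle, measured 0.602 and 0.530 RPKM against 1.41, 1.24 and 1.42 (limma log2 fold change 0.59, SE 0.075, adjusted p = 0.011). Racgap1 and Ect2, which together activate RhoA at the cleavage furrow, did not pass. Racgap1 lay at 1.52 and 1.33 RPKM against 1.83, 2.15 and 3.35 (limma adjusted p = 0.189). Ect2 lay at 0.215 and 0.389 RPKM against 0.606, 0.783 and 2.55 (limma adjusted p = 0.229). Its ratio of means was 4.35 with library 3 and 2.30 without it, and without library 3 it passed (limma adjusted p = 0.0446). With median-of-ratios scaling of the same libraries it did not pass (limma adjusted p = 0.0799).

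Of the 2 widely used markers of dividing cells, 1 was called. Mki67 (chromosome 7, 135689784 to 135716450), encoding the Ki-67 antigen of cycling cells, measured 0.981 and 0.785 RPKM against 1.82, 2.00 and 2.09 (limma log2 fold change 0.66, SE 0.10, adjusted p = 0.019), with means of 0.883 ± 0.138 (SD, n = 2) and 1.97 ± 0.135 (SD, n = 3) RPKM. Top2a, the topoisomerase that untangles sister chromatids, was more than 2 times as high in library 3 as in libraries 1 and 2, at 1.04 and 1.12 RPKM against 2.17, 2.42 and 5.54 (limma adjusted p = 0.129, and 0.0101 without library 3). Both genes were at about 1 RPKM or below in the CD133(positive)CD71(negative) libraries, with no overlap between groups.

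**Figure D2:**
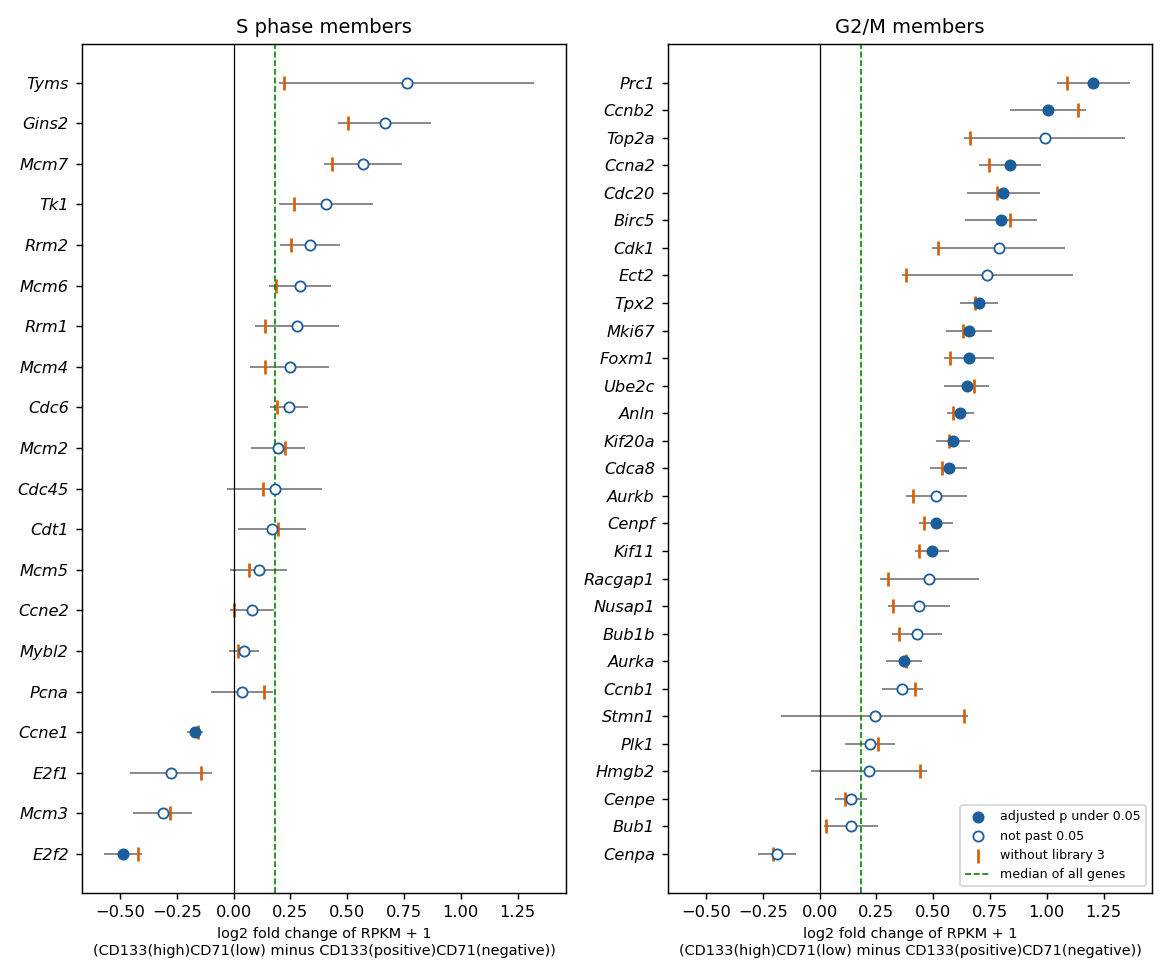
Log2 fold change of RPKM + 1 (x axis, positive where CD133(high)CD71(low) was higher, bars are SE of the limma fit) for each S phase member (left) and G2/M member (right); filled points passed an adjusted p of 0.05, orange ticks are the value without library 3 and the dashed line is the median of all genes (0.18). All filled points of G2/M members lie right of the dashed line, and the 2 filled points of S phase members lie left of 0.

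Of the 5 S phase members that encode a cyclin E or a transcription factor, 0 rose and 2 fell in CD133(high)CD71(low) cells. No other of the 20 S phase members fell, so the share of falls in the class was near the 10.2% of all genes. E2f2 (chromosome 4, 136172274 to 136196057), an activating E2F, fell: it measured 0.819 and 0.798 RPKM against 0.310, 0.396 and 0.171, or 0.809 ± 0.0152 (SD, n = 2) and 0.292 ± 0.114 (SD, n = 3) RPKM (limma log2 fold change -0.49, SE 0.084, adjusted p = 0.0246). Ccne1 (chromosome 7, 38097984 to 38107490), a cyclin E that acts with Cdk2 at S phase entry, fell as well, at 0.341 and 0.309 RPKM against 0.160, 0.215 and 0.156 (limma log2 fold change -0.17, SE 0.035, adjusted p = 0.039). Both calls were lost with a pseudocount of 0.1 (limma adjusted p = 0.0587 for E2f2 and 0.0691 for Ccne1). E2f1 had a lower mean in CD133(high)CD71(low) with overlap, at 1.15 and 1.07 RPKM against 0.698, 1.15 and 0.442. Ccne2, the other cyclin E gene, lay at 0.164 and 0.275 RPKM against 0.252, 0.188 and 0.441. Mybl2, the gene of B-Myb, lay at 0.424 and 0.272 RPKM against 0.397, 0.332 and 0.436, so that both overlapped at levels under 0.5 RPKM.

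Origin licensing genes were not called in either direction, 0 of 8. The 6 genes of the MCM ring, whose subunits assemble in equal numbers, differed in level, with CD133(positive)CD71(negative) means from 2.50 RPKM for Mcm5 to 10.2 for Mcm6. Mcm6 measured 10.2 and 10.2 RPKM against 11.7, 11.9 and 14.9 (limma adjusted p = 0.2). Mcm7 measured 7.18 and 7.55 RPKM against 10.8, 9.81 and 14.0 (limma adjusted p = 0.0928), and neither gene had overlap between groups. Mcm2 lay at 3.51 and 3.89 RPKM against 4.53, 4.46 and 4.14. Mcm4 lay at 3.07 and 3.92 RPKM against 3.93, 3.93 and 5.15, and its groups almost touched. Mcm3 went the other way, below both others in each CD133(high)CD71(low) library at 4.54 and 4.12 RPKM against 3.64, 3.14 and 3.10 (limma adjusted p = 0.164). The loader Cdc6 was low at 0.294 and 0.144 RPKM against 0.427, 0.356 and 0.546 (limma adjusted p = 0.116). The loader Cdt1 lay at 1.66 and 2.35 RPKM against 2.57, 2.28 and 2.23 and overlapped between groups. Mcm5 overlapped as well, at 2.33 and 2.68 RPKM against 2.77, 2.57 and 3.01.

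Of 3 replication fork genes none passed. Pcna, the sliding clamp of replication and repair, was the highest S phase member and overlapped between groups, at 21.0 and 23.5 RPKM against 23.6, 25.4 and 19.8 (limma log2 fold change 0.04, SE 0.14, adjusted p = 0.85). Gins2, a subunit of the replicative helicase, lay at 1.88 and 1.58 RPKM against 3.02, 2.73 and 4.39 without overlap (limma log2 fold change 0.66, SE 0.20, adjusted p = 0.0953), and passed without library 3, as did Mcm7 (limma adjusted p = 0.028 and 0.0227). In that fit 21.9% of all genes rose. With median-of-ratios scaling of the same libraries neither gene passed (limma adjusted p = 0.0942 and 0.0692). Cdc45, another helicase subunit, overlapped between groups at 0.561 and 0.885 RPKM against 1.31, 0.522 and 1.09.

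The 4 genes of nucleotide supply were above both others in every CD133(high)CD71(low) library, as were 44.5% of all genes, without a call. With median-of-ratios scaling this order held for 2 of the 4 and for 3774 of 16887 genes. Rrm2, the cell cycle regulated subunit of ribonucleotide reductase, measured 1.06 and 1.27 RPKM against 1.46, 1.69 and 2.07 (limma adjusted p = 0.153). Its partner Rrm1 measured 3.12 and 3.09 RPKM against 3.43, 3.60 and 5.06, a ratio of means of 1.30. The thymidine kinase gene Tk1 measured 1.85 and 1.48 RPKM against 2.56, 1.87 and 3.28, a ratio of 1.54, with groups that almost touched. Tyms, encoding thymidylate synthase, lay at 1.30 and 1.38 RPKM against 1.71, 1.75 and 7.38, so that library 3 alone gave it the highest ratio of the class, 2.69, against 1.29 from libraries 1 and 2. Tyms and Ccne2 in S phase and Cdk1, Bub1, Ect2 and Top2a in G2/M were at least 2 times as high in library 3 as in the mean of libraries 1 and 2. The gene models of library 3 differ, and their part in this was not tested.

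Cell cycle genes outside the 49 were taken from commonly used S phase and G2/M lists. Of 33 further G2/M genes 8 rose and 0 fell, where 5.67% of all genes rose and 10.2% fell. Their median ratio of means was 1.70. Ckap2, of the mitotic spindle, measured 0.151 and 0.233 RPKM against 0.769, 0.884 and 0.834 (log2 fold change 0.62, limma adjusted p = 0.00417). Ckap2l, its relative, measured 0.400 and 0.354 RPKM against 0.876, 0.991 and 1.10 (log2 fold change 0.53, limma adjusted p = 0.012). Nek2, a centrosomal kinase, measured 0.368 and 0.173 RPKM against 0.928, 0.912 and 0.993 (log2 fold change 0.62, limma adjusted p = 0.012). None of the 3 had overlap between groups. The other 5, named after their values were seen, were Cdca3, Kif2c, Dlgap5, Cdca2 and Tubb4b. Of 31 further S phase genes 0 rose and 0 fell in limma (median ratio 1.46). Their smallest p-values belonged to Clspn, Chaf1b and Ung. Clspn, a mediator of the replication checkpoint, lay at 0.142 and 0.0809 RPKM against 0.194, 0.221 and 0.246 (limma adjusted p = 0.073). Chaf1b, a chromatin assembly subunit, lay at 1.41 and 1.48 RPKM against 2.61, 2.30 and 3.48 (limma adjusted p = 0.074). Ung, the uracil glycosylase of repair, lay at 1.33 and 1.45 RPKM against 2.00, 2.16 and 1.96 (limma adjusted p = 0.0859). All 3 were without overlap between groups. Before adjustment 34.7% of all genes had a limma p under 0.05 in either direction. So had 5 of the 20 S phase members and 10 of the 31 further S phase genes, shares near or below that of all genes, and 21 of the 29 G2/M members and 18 of the 33 further G2/M genes. The 8 calls of further G2/M genes became 5 without CD133(high)CD71(low) library 1 and 1 without its library 2, against 0.747% and 0.391% of genes. Most were also lost without either CD133(positive)CD71(negative) library. The median log2 fold change of the 33 was then 0.30 without the first and 0.41 without the second, against 0.14 and 0.22 for all genes. Without library 3 there were 13, and 8 rises and 1 fall among the 31, against 21.9% of genes risen and 13% fallen. The 8 rises were 25.8% of the 31, near the share of all genes.

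All CD133(high)CD71(low) values exceeded both values of the other group for 23 of 29 G2/M members and 10 of 20 S phase members, where 44.5% of all genes did, and lay below both for 1 and 3, where 18% did. The S phase share was thus near that of all genes. The median log2 fold change was 0.57 for G2/M members, 0.19 for S phase members and 0.18 for all genes, so the S phase median lay where the median gene lay. Per library the median G2/M member stood at 0.588 and 0.546 RPKM against 1.23, 1.24 and 1.44, and the median S phase member at 1.76 and 1.53 RPKM against 2.56, 2.07 and 3.06.

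The median of the G2/M members stayed above 0 without library 3 and under the scalings below, while the number of calls moved. Without library 3, the 24 of 29 G2/M members that rose included all 15, and 0 fell (21.9% of all genes rose and 13% fell). In the same 4 libraries 2 of 20 S phase members rose and 2 fell. Median-of-ratios scaling left 10 G2/M members higher and 1 lower, Cenpa, when 2.65% of genes were higher and 12.2% lower. With this scaling and without library 3, 17 were higher and 1 lower, against 8.16% and 14.9% of genes. In both settings 0 S phase members rose and 2 fell.

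**Figure D3:**
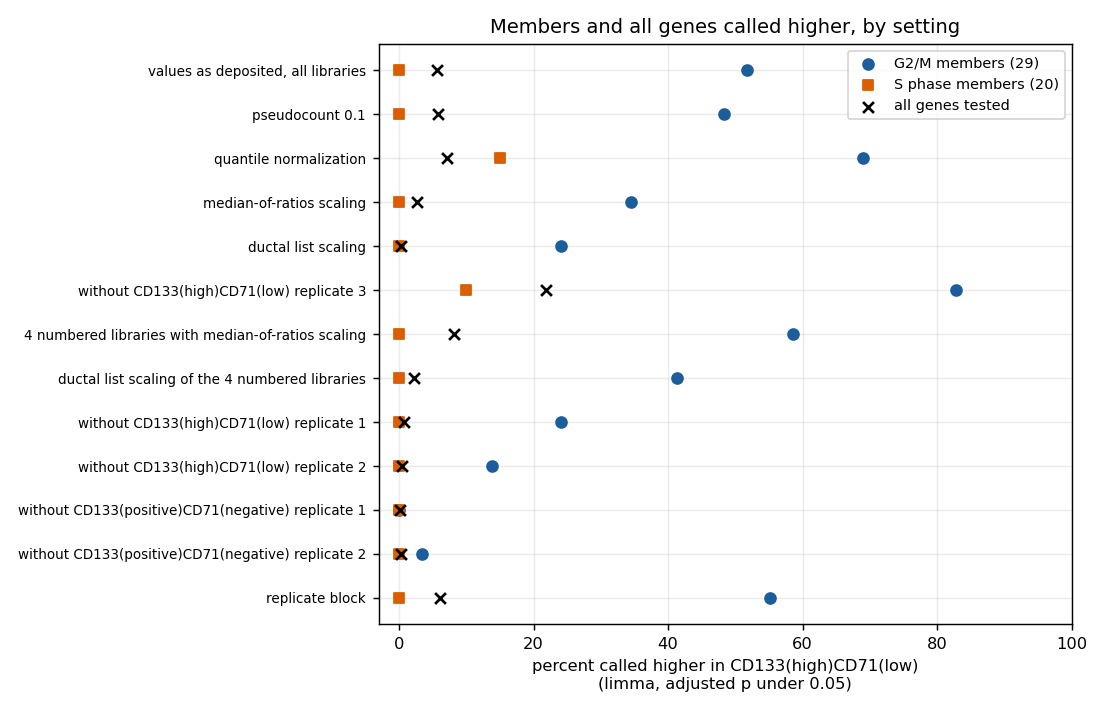
Percent of the 29 G2/M members (circles), 20 S phase members (squares) and all genes tested (crosses) called higher in CD133(high)CD71(low) by limma at an adjusted p under 0.05 (x axis), for the values as deposited and 12 alternative settings (y axis). The circles lie right of the crosses in each setting shown except without CD133(positive)CD71(negative) library 1, where no member was called.

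Markers of other cells moved between the same groups, and in sorted bulk RNA fewer cells of a type and less RNA per cell cannot be told apart. All 14 ductal markers were present, and their sum was 3544 and 3783 RPKM against 5131, 5132 and 7253, with 11 of 14 risen, a difference in the direction of the G2/M genes. Spp1 alone made up 56.4% to 66.8% of that sum. The other 13 summed to 1258 and 1358 RPKM against 2236, 2169 and 2407, or 1.71, 1.66 and 1.84 times the CD133(positive)CD71(negative) mean. With libraries scaled to an equal ductal sum, an alternative chosen after seeing the data, 7 G2/M members were higher and 1 lower, against 0.349% and 18.8% of genes. These 7 were Ccna2, Foxm1, Cenpf, Kif11, Tpx2, Prc1 and Anln. The median log2 fold change was then 0.29 for G2/M members, -0.25 for S phase members and -0.19 for all genes. In this setting 0 S phase members were higher and 3 lower, E2f2, Ccne1 and Mcm3. Without library 3 the same scaling gave 12 G2/M members higher, against 2.25% of genes. Scaling to the ductal list leaving out Spp1, also added after seeing the data, called the same 7 G2/M members higher and 1 lower, and 0 S phase members higher and 8 lower, against 0.361% and 36.6% of genes.

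Markers of leukocytes and vessel cells were lower in CD133(high)CD71(low) cells, against the direction of the G2/M genes and in that of E2f2 and Ccne1. The sum of 20 leukocyte markers was 1875 and 1846 RPKM against 92.5, 79.6 and 49.1, with 19 of 20 fallen, and that of 14 endothelial markers 908 and 847 RPKM against 249, 154 and 85.1, with 13 of 14 fallen. No marker of either list was at 0 in all libraries of a group. The mesenchymal sum (12 markers) was 212 and 194 RPKM against 89.2, 83.6 and 89.7, with 7 fallen, and the endocrine sum (12 markers) 1851 and 1678 RPKM against 1584, 1841 and 593, with 4 fallen. Of 15 acinar markers 0 passed in limma (0 at an unadjusted p under 0.05), and their sum exceeded the ductal sum in every library. The erythroid list, of which 10 of 16 symbols were used here, summed to 12.0 and 12.3 RPKM against 123, 119 and 32.7. Of these markers 2 rose and 0 fell, so this sum went in the direction of the G2/M genes. Nearly all of that sum was hemoglobin RNA. Of its other genes, Alas2 of heme synthesis measured 0.181 and 0.181 RPKM against 0.691, 0.574 and 0.273, Klf1, Epor and Rhag reached at most 0.331 RPKM (Epor) in any library, and Epb4.2 was listed at 0 in both CD133(positive)CD71(negative) libraries. The part of these cells in the levels of the cell cycle genes was not tested.

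**Figure D4:**
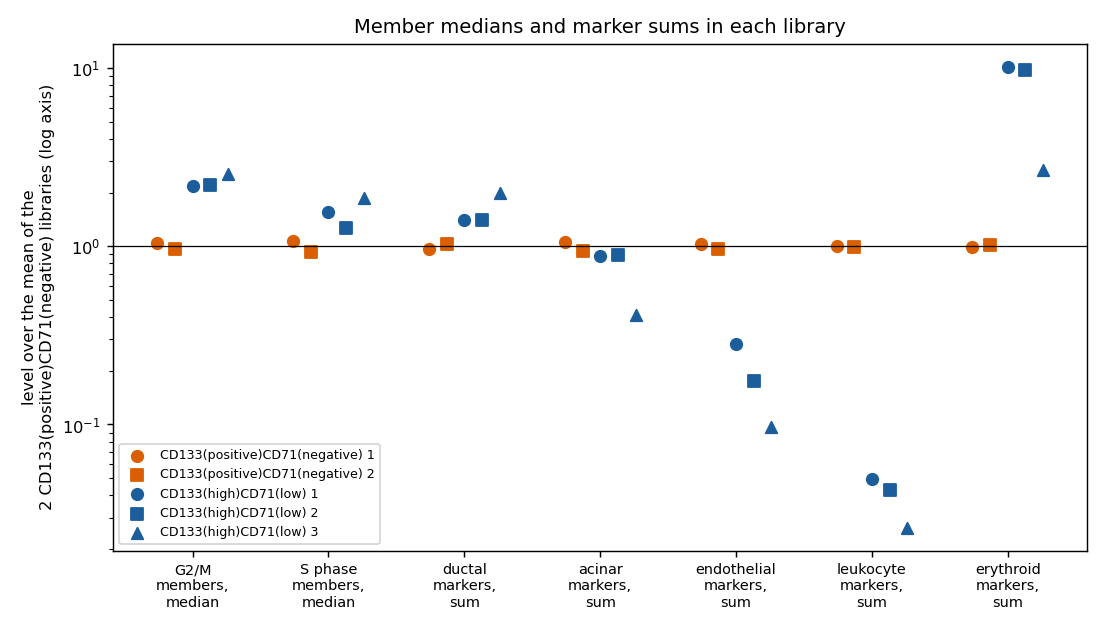
Median level of the G2/M and S phase members and summed level of 5 marker lists in each library, as a multiple of the mean of the 2 CD133(positive)CD71(negative) libraries (y axis, log scale). The CD133(high)CD71(low) libraries lie between 2.18 and 2.54 for the G2/M members and between 1.26 and 1.86 for the S phase members, between 1.40 and 1.98 for ductal markers (mostly Spp1) and under 0.05 for leukocyte markers.

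Reads of some members may include those of other loci. Exons of 16 members overlap another gene in GENCODE M21, 7 of them among the 15 that rose (Ccna2, Foxm1, Cdca8, Cdc20, Ube2c, Prc1 and Kif20a), and the use of strand in counting is not given in the sources used here. Pcna, Tyms, Ccnb1, Ccnb2 and Stmn1 have named pseudogenes or related sequences, so their values are uncertain. The 7 risen members with neither were Aurka, Birc5, Cenpf, Kif11, Tpx2, Anln and Mki67.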

How the data were processed

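For each library the authors deposited a table of gene symbols and values. Partek and mm10 are named, per the submitters' processing notes. The aligner, the annotation and the unit were not given in the sources used here. The deposited values were read as RPKM: for genes with one transcript length, low values times length fell on whole multiples (within 0.05 reads) of one step per library for 56.3% to 65.2% of values, too few to recover counts. A row naming no gene in the table of library 3 was left out. Values were joined on 16992 common symbols, and 16887 genes with a value above 0 were fitted as log2(RPKM + 1) with limma 3.58.1 (R 4.3.3; empirical Bayes with trend, group as the only term, no minimum mean) and Benjamini-Hochberg adjustment at 0.05. The members and lists were chosen with earlier results of these data known. Values in every library are given for members that passed, the 6 highest and the 6 with the smallest p of each class, and 3 genes of each further list; other members were named after their values were seen. With 2 against 3 libraries an exact permutation test cannot pass 0.05 and was not used. The 24 date-like symbols of the numbered tables (23 in library 3) are not named. Alternatives were each library left out, quantile normalization, median-of-ratios scaling, a minimum mean of 1, a pseudocount of 0.1, a replicate block and, added after seeing the data, scaling to the ductal list with and without Spp1. Python 3.11.15, pandas 2.3.3 and matplotlib 3.10.9 made tables and figures.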

Additional observations from a re-analysis of the deposited data

How the results depend on the processing

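Of 528 comparisons of 36 named genes over 15 alternatives, 364 kept direction and side of the threshold, 103 lost and 23 gained a call and 38 changed sign, none of them among the 15 risen G2/M members. The cause of each change was not tested, except that a minimum mean of 1 left genes out. It left out 13 G2/M members, and 13 of 20 S phase members and 18 of 33 further G2/M genes were tested. E2f2 and Ccne1 were left out, as were Ckap2, Ckap2l, Nek2, Kif2c, Dlgap5 and Cdca2 of the further G2/M genes. Calls are given as higher and lower in limma. With a pseudocount of 0.1, 0 S phase members were lower, the G2/M median log2 fold change was 1.11 and 968 of all genes were higher and 1645 lower. With a minimum mean of 1 these were 0, with E2f2 and Ccne1 not tested, and 0.66. Of the further G2/M genes tested 1 was higher, and 735 of 11769 genes were higher and 850 lower. Quantile normalization gave 3 S phase members higher and 0 lower, 7 further S phase genes higher, 13 further G2/M genes higher and 1 lower, and a G2/M median of 0.75, with 1210 of all genes higher and 1527 lower. Median-of-ratios scaling gave 1 G2/M member lower, 4 further G2/M genes higher and 1 lower, 447 of all genes higher and a G2/M median of 0.44. In the 4 numbered libraries it gave 1 G2/M member lower, 2 further S phase genes higher and 3 lower, 1 further G2/M gene lower and a G2/M median of 0.43. Ductal list scaling gave 7 G2/M members higher and 1 lower, 3 further S phase genes lower, 2 further G2/M genes higher and 1 lower, 59 of all genes higher and 3168 lower, and medians of 0.29 (G2/M) and −0.25 (S phase). In the 4 numbered libraries it gave 5 S phase and 1 G2/M member lower, 6 further S phase genes lower, 4 further G2/M genes higher and 2 lower, 376 of all genes higher and 5335 lower, and medians of 0.29 and −0.15. Leaving Spp1 out of the list gave 8 S phase members lower, 7 G2/M members higher and 1 lower, 5 further S phase genes lower, 2 further G2/M genes higher and 5 lower, 61 of all genes higher and 6176 lower, and medians of 0.21 (G2/M) and −0.35 (S phase). In these ductal settings, in the same order, the median of all genes was −0.19, −0.17 and −0.30.

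Replicate numbers 1 and 2 occur in both groups, but the deviations of same-numbered libraries did not go together (correlation −0.02 across genes). The numbers were therefore used only as names in the main fit. This correlation cannot tell whether same-numbered libraries came from the same mice or sort. Library 3 has no partner and adds nothing to a blocked difference. The replicate block gave 16 G2/M members higher, 1 S phase member lower, 1 further G2/M gene lower and 1022 of all genes higher. The replicate block with median-of-ratios scaling gave 12 G2/M members higher, 1 S phase member lower, 1 further S phase gene lower, 1 further G2/M gene higher and 1 lower, 569 of all genes higher and a G2/M median of 0.44.

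Leaving out 1 library at a time gave 0 to 24 G2/M members higher, 0 to 2 S phase members higher and 0 to 2 lower, 1 to 13 further G2/M genes higher and 0 to 1 lower, 0 to 8 further S phase genes higher and 0 to 1 lower, and 17 to 3662 of all genes higher and 885 to 2166 lower. Where 1 CD133(positive)CD71(negative) library was left, it was assumed to vary like the other group.

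Log2 fold changes that changed sign were mostly those of S phase members. That of Pcna was −0.24 with median-of-ratios scaling, −0.26 with quantile normalization, −0.051 with the former in the 4 numbered libraries and −0.051 with the former and the block, −0.59 and −0.33 with ductal list scaling of all and of the 4 numbered libraries, and −0.040 to 0.14 with 1 library left out. That of Mcm4 was −0.013 with median-of-ratios scaling both in the 4 numbered libraries and with the block, and −0.28 and −0.24 with ductal list scaling of all and of the numbered libraries. That of Mcm2 was −0.041 with median-of-ratios and −0.33 and −0.16 with the same ductal scalings, which also gave Mcm6 −0.31 and −0.26, Mcm7 −0.019 and −0.0037, and Rrm2 −0.049 and −0.028. Median-of-ratios, quantile and ductal list scaling gave Stmn1 −0.040, −0.072 and −0.38, and the first and last gave Hmgb2 −0.033 and −0.34. Ductal list scaling gave Ung −0.060 in all libraries and Racgap1 −0.0041 in the numbered ones. With Spp1 left out, ductal list scaling of all libraries gave Hmgb2 −0.47, Mcm2 −0.45, Mcm4 −0.39, Mcm6 −0.44, Mcm7 −0.15, Pcna −0.72, Racgap1 −0.035, Rrm2 −0.13, Stmn1 −0.52 and Ung −0.16. Low levels limit these results: 23 of the 29 G2/M members had a mean under 1 RPKM in CD133(positive)CD71(negative).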
